A study of Mus musculus with 12 samples.

Results

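Oxidative phosphorylation genes encoded in the nucleus were followed in 3 populations of CD8+ T cells from mice with melanoma. They were taken by symbol: every gene of the count table whose symbol begins with Nduf, Uqcr, Cox4 to Cox8 or Atp5, together with Sdha, Sdhb, Sdhc and Sdhd. Assembly factors that begin with Ndufaf and pseudogenes marked -ps were left out. This gave 85 of 48397 symbols, of which 37 belong to complex I, 4 to complex II, 8 to complex III, 19 to complex IV and 17 to complex V. Ndufa4 was counted with complex IV, where its protein is now placed, while its paralog Ndufa4l2 was left with complex I. The symbols also bring in Cox7a2l, which ties complexes into supercomplexes, and Atp5s and Atp5sl, which are not standing subunits of the enzyme. Subunits with other symbols, such as Cyc1, Usmg5 and 2010107E04Rik, fall outside. Enough reads for a test were found for 82 of the 85, and 77 had a mean of at least 10 CPM (counts scaled to the size of each library). The genes not tested were Cox7b2, Cox8b and Ndufa4l2.

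The mice were Kaede-Tg animals, which make a protein that turns from green to red in violet light, and they carried tumors of YUMMER1.7, a mouse melanoma cell line. Photoconversion of the tumor was on day 11 and harvest on day 12. Egressed cells were Kaede red+ CD44+ CD8+ T cells sorted from the tumor-draining lymph node. Tumor-retained cells were the Kaede red+ cells sorted from the tumor. Spleen cells were CD44+ CD8+ T cells of the circulating pool that were not selected for red. Each group had 4 libraries, labelled as replicate mice, and the labels do not say whether libraries with the same number share a mouse. All groups share the transgene and the tumor, so no library comes from a mouse without a tumor.

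Oxidative phosphorylation makes most of the ATP of a resting or long-lived T cell. Complexes I and II pass electrons from NADH and succinate to ubiquinone, complex III passes them to cytochrome c, complex IV hands them to oxygen, and complex V, the ATP synthase, uses the proton gradient that the others build. Complex II is encoded in the nucleus alone, while the others also hold subunits from the mitochondrial genome. In CD8+ T cells, memory cells rely on this pathway for long survival, and loss of mitochondrial function has been described in T cells inside tumors. Many of its nuclear genes are known targets of the transcription factors NRF1, GABP (also named NRF2) and YY1.

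Promoters of 5 members are printed, 1 for each complex, to show which of the members that stood farthest from the spleen hold words of these factors. Each had the smallest p of its complex for tumor-retained against spleen cells among the members with a promoter sequence used here. Sequences are from RefSeq (GRCm38.p6), 300 bases each, 250 before and 50 after the start, 5′ to 3′ on the strand of the gene. Capitals mark words searched on both strands: the NRF1 word of 10 letters, CCGGAAGT for GABP and AAGATGGC for YY1. The words do not overlap each other here. Ndufa7, a small accessory subunit of complex I, is shown at chr17:33824322-33824621 on the plus strand, from the start nearest the annotated gene. Sdha, the flavoprotein that oxidizes succinate, is shown at chr13:74350191-74350490 on the minus strand. Uqcr10, a small subunit of complex III, is shown at chr11:4704295-4704594 on the minus strand. Cox7b, a small subunit of complex IV, is shown at chrX:106015450-106015749 on the plus strand. Atp5j2, subunit f of the ATP synthase, is shown at chr5:145191492-145191791 on the minus strand.
Ndufa7: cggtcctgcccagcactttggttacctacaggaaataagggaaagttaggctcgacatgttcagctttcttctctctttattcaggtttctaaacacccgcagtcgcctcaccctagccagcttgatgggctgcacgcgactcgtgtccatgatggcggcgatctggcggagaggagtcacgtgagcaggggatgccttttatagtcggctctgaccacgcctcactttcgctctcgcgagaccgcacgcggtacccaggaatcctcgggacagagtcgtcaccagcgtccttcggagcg
Sdha: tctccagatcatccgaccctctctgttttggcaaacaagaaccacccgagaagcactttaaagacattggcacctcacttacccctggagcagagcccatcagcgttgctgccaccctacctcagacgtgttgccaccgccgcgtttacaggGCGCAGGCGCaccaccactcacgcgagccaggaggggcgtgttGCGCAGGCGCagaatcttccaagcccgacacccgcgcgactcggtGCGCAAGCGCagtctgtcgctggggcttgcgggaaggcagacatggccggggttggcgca
Uqcr10: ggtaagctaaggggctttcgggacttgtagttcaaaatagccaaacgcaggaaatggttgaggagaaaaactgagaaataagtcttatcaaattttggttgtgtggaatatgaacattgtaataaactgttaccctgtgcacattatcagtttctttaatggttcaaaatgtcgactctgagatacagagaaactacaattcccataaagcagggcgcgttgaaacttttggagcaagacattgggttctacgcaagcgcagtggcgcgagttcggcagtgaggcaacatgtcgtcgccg
Cox7b: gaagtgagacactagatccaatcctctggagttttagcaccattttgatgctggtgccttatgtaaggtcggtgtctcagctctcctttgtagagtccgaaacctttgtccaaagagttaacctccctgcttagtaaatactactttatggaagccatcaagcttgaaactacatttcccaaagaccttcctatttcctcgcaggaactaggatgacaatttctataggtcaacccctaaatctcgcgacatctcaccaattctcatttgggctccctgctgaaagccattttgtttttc
Atp5j2: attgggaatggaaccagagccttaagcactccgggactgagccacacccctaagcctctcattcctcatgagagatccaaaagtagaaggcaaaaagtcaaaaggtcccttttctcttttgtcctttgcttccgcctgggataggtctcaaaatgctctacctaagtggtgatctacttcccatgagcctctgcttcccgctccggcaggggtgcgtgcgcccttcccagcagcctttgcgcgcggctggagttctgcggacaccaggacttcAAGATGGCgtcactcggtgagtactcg

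The Sdha promoter held 3 NRF1 words, which begin 98, 55 and 10 bases before the start, and that of Atp5j2 held a YY1 word 23 bases after it. Those of Ndufa7, Uqcr10 and Cox7b held none of these exact letters. Of the 70 members with a promoter, 29 (41.4%) held at least 1 of the words, beside 10.4% of 32851 promoters and 13.5% of the 21262 promoters of coding genes. NRF1 words stood in 22.9% of members' promoters (4.6% of all, 6.38% of those of coding genes). In the same order, YY1 words stood in 14.3% (2.75%, 3.05%) and GABP words in 7.14% (3.89%, 5.15%). By complex, the promoters with any word numbered 14 of 32 for complex I, 2 of 3 for complex II, 3 of 5 for complex III, 2 of 14 for complex IV and 8 of 16 for complex V. A match of letters is a description and not a site of binding. The median log2 fold change of members of at least 10 CPM with a word (29 genes) was 0.07 for egressed against tumor-retained cells, 0.16 for egressed against spleen and 0.13 for tumor-retained against spleen. Members of at least 10 CPM without one (37 genes) had 0.02, 0.23 and 0.24 in the same order.

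Totals in mega-counts (M) were 22.7 to 29.2 M in egressed, 25.6 to 36.3 M in tumor-retained and 27.3 to 33.4 M in spleen libraries, so that a count of 3 equals 0.0827 to 0.132 CPM. Between 14927 and 25916 genes had a read in egressed, 15296 to 21306 in tumor-retained and 30658 to 32165 in spleen libraries. The fewest were in egressed libraries 3 and 4 and tumor-retained library 1. Tumor-retained libraries 3 and 4 stood apart by transcripts of other cells. Their 12 macrophage markers summed to 2352 and 3729 CPM, against 32.8 and 47.0 CPM in tumor-retained libraries 1 and 2. The sums were 11.7 to 105 CPM in egressed and 30.5 to 102 CPM in spleen libraries. Their 12 stromal markers summed to 5536 and 2771 CPM, against 146 and 141 CPM in tumor-retained libraries 1 and 2. In egressed libraries these markers summed to 85.7 to 135 CPM and in spleen libraries to 153 to 168 CPM. No tested marker of either list was at 0 in all libraries of a group. A stromal marker with too few reads for a test was at 0 in all spleen libraries. Of 6 tested melanoma markers, Mlana and Tyrp1 were at 0 in all tumor-retained libraries. The 8 B cell markers, of which Ighm gave most, summed to 596 to 711 CPM in egressed libraries. They summed to 121 to 146 CPM in tumor-retained and 662 to 813 CPM in spleen libraries. The 10 CD8 T cell identity genes summed to 7654 to 8075 CPM in egressed, 4669 to 9080 CPM in tumor-retained and 8008 to 9064 CPM in spleen libraries. In bulk samples, fewer cells of a type and less RNA per cell cannot be told apart.

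The members made up about 1 count in every 100: 1.00 to 1.09% of all counts in egressed, 0.857 to 1.11% in tumor-retained and 0.895 to 0.940% in spleen libraries. Scaled to CPM, all members summed to 9476 to 10456 CPM in egressed, 8238 to 11595 CPM in tumor-retained and 9240.4 to 9901 CPM in spleen libraries, so the 3 ranges overlap and the tumor-retained libraries span the other 2.

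**Figure D1:**
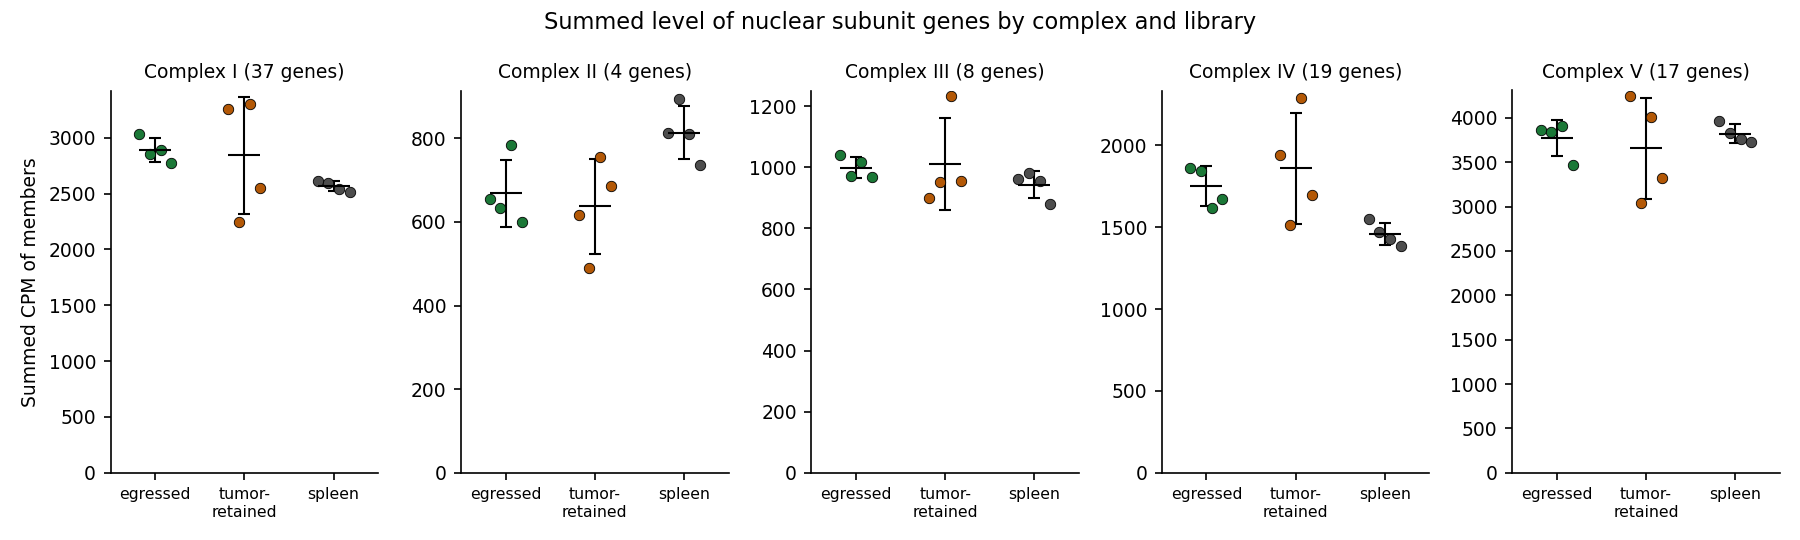
Summed CPM of the nuclear subunit genes of each complex (vertical axis, from 0) in egressed, tumor-retained and spleen libraries. Points are libraries and bars are group means with SD (n = 4); complex I ran from 2771 to 3035 CPM in egressed, above the 2513 to 2615 CPM of spleen libraries, and tumor-retained libraries ran from 2247 to 3306 CPM.

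By complex, the sums of egressed cells lay wholly above those of spleen cells for complexes I and IV. Complex I summed to 3035, 2858, 2894 and 2771 CPM in egressed libraries 1 to 4, 3259, 2247, 3306 and 2552 CPM in tumor-retained libraries and 2615, 2592, 2544 and 2513 CPM in spleen libraries. Complex IV summed to 1859.5, 1844, 1616 and 1673 CPM in egressed, 1939.6, 1511, 2289 and 1693 CPM in tumor-retained and 1547, 1472, 1425 and 1386 CPM in spleen libraries. The egressed libraries did not overlap the spleen libraries in either sum. Tumor-retained library 2 lay below the spleen range of complex I and inside that of complex IV, and tumor-retained library 4 lay inside that of complex I. Complex II had its highest mean in the spleen, with 655, 634, 785 and 599 CPM in egressed, 615, 491, 756 and 687 CPM in tumor-retained and 813, 894, 810.2 and 737 CPM in spleen libraries. Egressed library 3 and tumor-retained library 3 reach into the spleen range. Complex III (968 to 1039 CPM in egressed, 899.9 to 1232 CPM in tumor-retained, 878 to 980.5 CPM in spleen) and complex V (3464 to 3904 CPM in egressed, 3037 to 4248 CPM in tumor-retained, 3727 to 3965 CPM in spleen) overlapped between all groups. These sums are dominated by the members with most reads and carry no test.

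Levels per length, the mean CPM divided by the kilobases of the transcript, put the complexes in a similar order in all 3 groups, with complex IV highest. Its 12 members of at least 10 CPM had a median of 241.5 CPM per kb in egressed, 246.5 in tumor-retained and 181 in spleen cells. Complex V had 169, 186 and 151 CPM per kb in the same order of groups, complex III 187, 178 and 147, complex II 106, 103 and 122, and complex I 73.4, 77.0 and 76.0. By the mean over groups, the highest of all was Atp5b, the catalytic beta subunit of the ATP synthase, at 572 CPM per kb in egressed, 551 in tumor-retained and 646 in spleen cells. In complex IV the highest was Cox8a, with 374 CPM per kb in egressed, 480.5 in tumor-retained and 368 in spleen cells. In the same order of groups, Uqcrq led complex III with 294, 371 and 208 CPM per kb, Ndufa3 led complex I with 251.1, 224 and 173, and Sdhb led complex II with 126, 133 and 154. The lowest tested members per length were Ndufb2 in complex I (18.8, 24.0 and 25.4 CPM per kb), Sdhc in complex II (16.1, 16.4 and 20.2), Uqcrc2 in complex III (50.2, 49.5 and 65.7), Cox8c, a testis form, in complex IV (1.27, 0 and 0.685) and Atp5s in complex V (13.3, 10.5 and 7.27), in the same order of groups. Lengths rest on 1 transcript chosen per gene, and levels per length, such as that of Atp5g1, move with that choice.

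**Figure D2:**
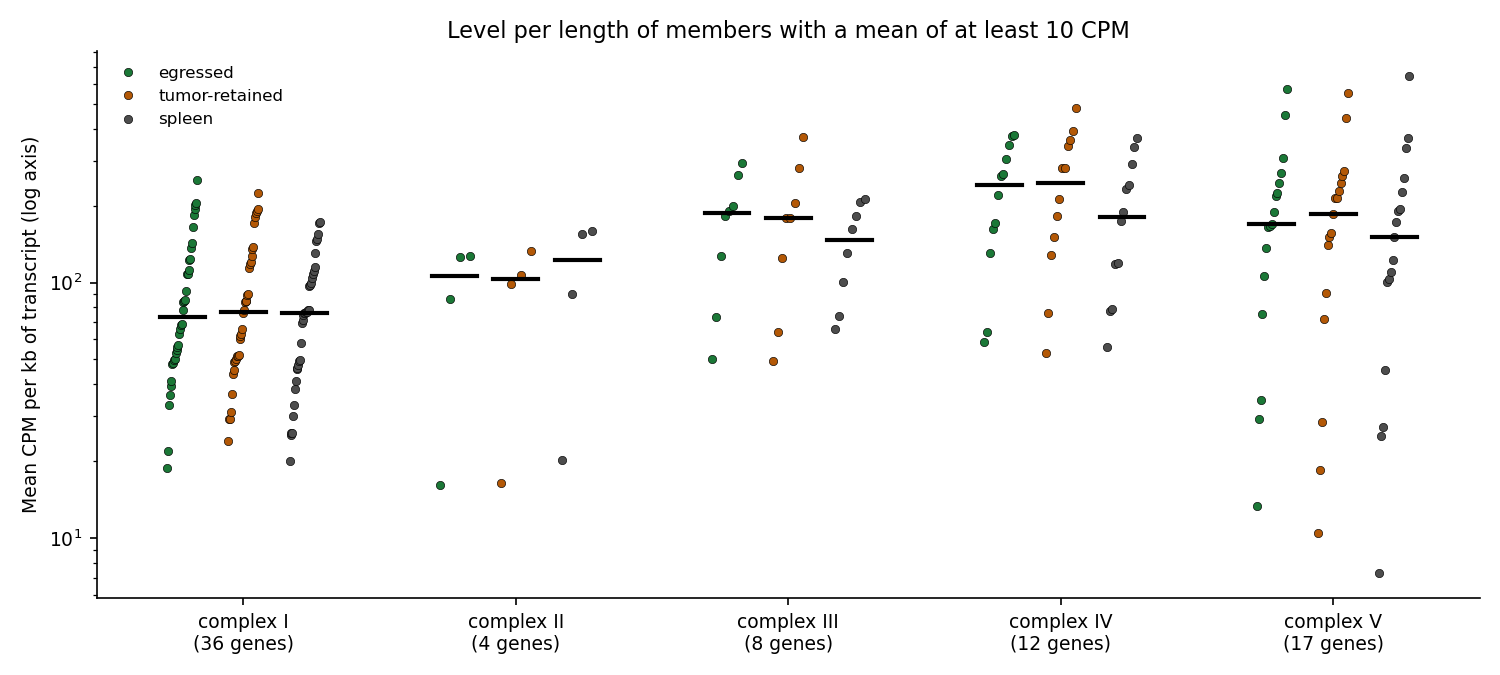
Mean CPM per kb of transcript (log axis) of the 77 members with a mean of at least 10 CPM, by complex, for egressed, tumor-retained and spleen cells. Each point is a gene and each line a median; complex IV lies highest, at 241.5, 246.5 and 181 CPM per kb, and complex I lowest, at 73.4, 77.0 and 76.0.

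The comparison of egressed with tumor-retained cells sets cells that left the tumor against those that stayed. The first came from the lymph node and the second from the tumor, so leaving and tissue cannot be told apart. None of the 82 tested members differed past the threshold, an adjusted p under 0.05 by the quasi-likelihood test of edgeR with Benjamini-Hochberg adjustment over all genes, where 1.10% of all 21457 genes did. The median log2 fold change of the members was 0.03, beside 0.00 for all genes, with 47 of 82 above 0. The complexes lay close together, with medians of 0.03 for complex I, -0.05 for II, 0.02 for III, -0.09 for IV and 0.06 for V. For 66 of the 82 (80.5%) the 95% interval of the fold change stayed within 2-fold of no difference, and for the other 16 it reached beyond. The interval stayed within 2-fold for 2993 of all 21457 genes and for 2968 of the 9054 of at least 10 CPM. Among the members it also did so for 58 (70.7%) in egressed against spleen and 56 (68.3%) in tumor-retained against spleen cells. Before adjustment, 3 members were higher at p under 0.05, against 9.57% of all genes, and 2 were lower, against 7.81%. DESeq2 called 3 members (3.66%) where it called 9.03% of all genes: Ndufa10 and Atp5g1 higher and Cox6a2 lower.

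The member nearest to a call was Ndufa10, an accessory subunit of complex I. Its levels were 129.8, 167, 185 and 209 CPM in egressed libraries, 122, 74.8, 107 and 90.1 CPM in tumor-retained libraries and 147, 152, 158 and 144 CPM in spleen libraries. It was the 1 member whose egressed libraries all lay above all tumor-retained libraries (3.14% of all genes did so), and none lay wholly below (3.21% of all genes). The log2 fold change was 0.81 ± 0.19 (SE), with an adjusted p of 0.0666, which became 0.0326 with library size in place of TMM, 0.0251 with only genes of at least 10 CPM and 0.00271 by DESeq2. The tumor-retained libraries were also below all 4 spleen libraries (log2 fold change -0.61 ± 0.19, adjusted p = 0.118). Ndufv1, the core subunit that takes electrons from NADH, had 129, 99.7, 74.6 and 48.5 CPM in egressed libraries, against 159, 129, 144 and 131 CPM in tumor-retained libraries. These overlap at egressed library 1 and tumor-retained library 2, and the log2 fold change of -0.68 ± 0.25 did not pass (adjusted p = 0.187). Atp5g1, a gene for subunit c of the ATP synthase rotor, had 172, 149, 131 and 95.4 CPM in egressed libraries, against 77.2, 67.4, 108 and 91.5 CPM in tumor-retained libraries, with egressed library 4 inside the tumor-retained range (log2 fold change 0.67 ± 0.21, adjusted p = 0.14). Macrophage, stromal and B cell marker sums differ between these groups as given above, and their part in these values was not tested.

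The comparison of egressed with spleen cells sets T cells marked in the tumor against the circulating pool. It also sets lymph node against spleen, so the mark and the tissue cannot be told apart. No member passed the threshold, which 0.368% of all genes did. The fit takes the spread of each gene from all 3 groups, so the tumor-retained libraries enter this test too. With the 2 groups alone, 3 of 81 members were called (3.70%, against 1.18% of all genes). In their means most members were higher in egressed cells: 62 of 82 had a positive log2 fold change, and the median was 0.19 where that of all genes was -0.13. In 20 members (24.4%) all egressed libraries lay above all spleen libraries, against 2.94% of all genes and 5.39% of the 9054 genes of at least 10 CPM. Those 20 came from complex I (Ndufs5, Ndufa7, Ndufc1, Ndufa3, Ndufa1, Ndufs4), complex III (Uqcr10, Uqcrb, Uqcrq), complex IV (Cox7a2, Cox7b, Cox7c, Cox5b, Cox6b1) and complex V (Atp5h, Atp5l, Atp5e, Atp5k, Atp5c1, Atp5j2). Only 4 members (4.88%), Sdhb, Cox6a2, Atp5a1 and Atp5b, lay wholly below, against 11.1% of all genes and 16.3% of genes of at least 10 CPM. Cox6a2 did so near the floor, with 0 counts in egressed and 4 to 26 in spleen libraries. Before adjustment 13 members were higher at p under 0.05 (15.9%, against 2.05% of all genes) and 3 were lower (3.66%, against 6.74%). Among genes of at least 10 CPM, as 77 of the members are, 4.42% were higher and 10.5% lower. DESeq2 called 13 members, all higher (15.9%, against 2.40% of all genes).

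The median log2 fold change against spleen was 0.17 in complex I (29 of 36 positive), -0.31 in complex II (0 of 4), 0.32 in complex III (5 of 8), 0.25 in complex IV (14 of 17) and 0.21 in complex V (14 of 17). Relative to the median of all genes, the members stood 0.32 higher with TMM scaling and 0.33 higher with the size factors of DESeq2, which moved the median of all genes itself to 0.03. That distance was 0.21 without egressed libraries 3 and 4 and tumor-retained library 1, 0.50 without egressed library 2, 0.60 without a filter on low counts, 0.67 with a replicate block and 1.01 with limma-voom. These distances are not matched for transcript length. Under 600 bases the median was 0.34 for members and 0.41 for other coding genes of at least 10 CPM. At 600 to under 1000 bases it was 0.17 and 0.25, and at 1000 or more 0.06 and -0.19. The part of length was not tested. Mitochondrially encoded subunits did not share the members' direction: 11 of 12 tested had negative log2 fold changes. Cox7b had the smallest p, with a log2 fold change of 0.72 ± 0.16 (adjusted p = 0.105), and Ndufa7 was next, with 0.65 ± 0.15 (adjusted p = 0.114).

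**Figure D3:**
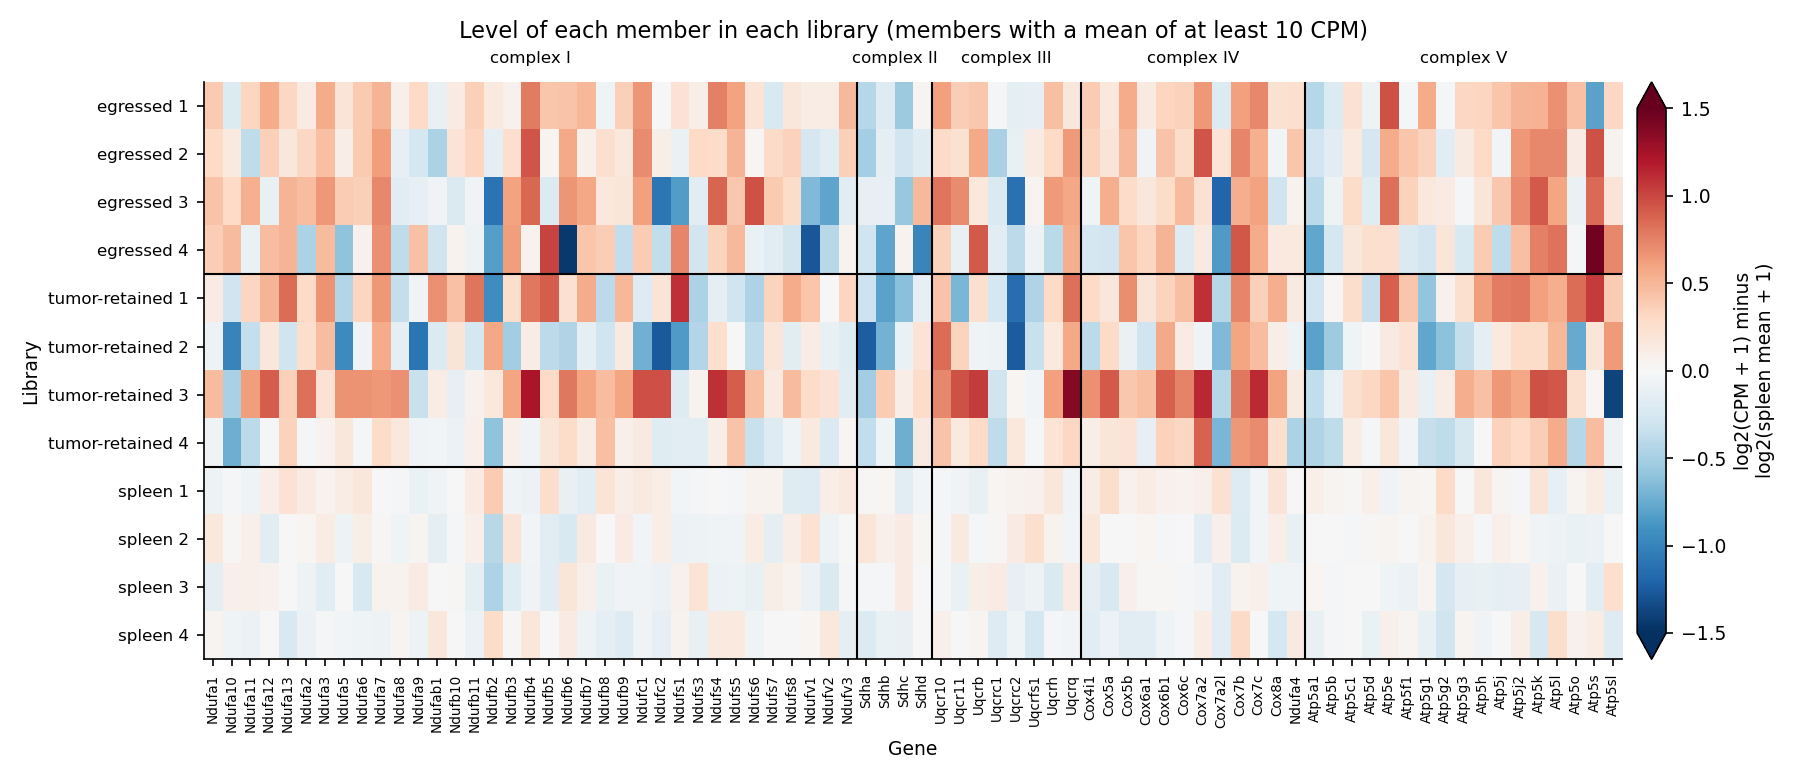
log2(CPM + 1) of 76 members with a mean of at least 10 CPM (columns, by complex) in each of the 12 libraries (rows, egressed at the top, then tumor-retained, spleen at the bottom), minus the log2(mean + 1) of the spleen libraries. In 20 members all egressed libraries lie above all spleen libraries, none of them in complex II, and the tumor-retained libraries differ most among themselves, with sums over all members from 8238 to 11595 CPM.

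Tumor-retained cells against spleen cells gave the 1 call among the members. Cox7b rose 0.70 ± 0.16 on the log2 scale (adjusted p = 0.0468, edgeR with Benjamini-Hochberg adjustment), so 1 of 82 members passed, where 2.41% of all genes passed, 1.02% upward and 1.39% downward. Positive log2 fold changes were found in 59 of 82 members, with a median of 0.19 where that of all genes was -0.15. This comparison and that of egressed with spleen cells share the spleen libraries. In 12 members (14.6%) all tumor-retained libraries lay above all spleen libraries, against 4.43% of all genes and 8.14% of genes of at least 10 CPM: Ndufa7, Uqcrq, Uqcr10, Cox7b, Cox7c, Cox6b1, Cox6c, Atp5j2, Atp5l, Atp5k, Atp5j and Atp5e. In 6 members (7.32%) they lay wholly below, against 15.9% of all genes and 17.4% of genes of at least 10 CPM: Ndufa10, Sdha, Cox8c, Cox7a2l, Atp5a1 and Atp5g1. Cox8c did so near the floor, with 0 counts in tumor-retained and 4 to 12 in spleen libraries.

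Before adjustment, 14 members were higher at p under 0.05 (17.1%, against 5.10% of all genes) and 4 were lower (4.88%, against 11.6%). Among genes of at least 10 CPM, as 77 of the members are, 10.4% were higher and 13.1% lower. DESeq2 called 16 members, all higher (19.5%, against 8.36% of all genes). The median log2 fold change was 0.17 in complex I (28 of 36 positive), -0.26 in complex II (1 of 4), 0.32 in complex III (5 of 8), 0.39 in complex IV (12 of 17) and 0.14 in complex V (13 of 17). Without tumor-retained libraries 3 and 4, which hold the macrophage and stromal transcripts, no member was called, the members' median was 0.08 where that of all genes was -0.45, and Cox7b had a log2 fold change of 0.65 with an adjusted p of 0.198.

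Cox7b (chrX:106015700-106022450 on mm10, plus strand) encodes a small subunit on the membrane part of cytochrome c oxidase. Its levels were 121, 133, 116 and 152 CPM in egressed libraries, 132, 120.1, 137 and 125 CPM in tumor-retained libraries and 69.3, 68.7, 82.0 and 96.6 CPM in spleen libraries. All 4 egressed and all 4 tumor-retained libraries lie above the highest spleen library, and the egressed and tumor-retained ranges overlap (131 ± 16.0 and 129 ± 7.48 CPM, SD, n = 4 each, log2 fold change 0.02 ± 0.16). Leaving out any 1 of egressed 1 to 3, tumor-retained 1 to 4 or spleen 1 to 4 moved its adjusted p for tumor-retained against spleen to between 0.0539 and 0.196, while leaving out egressed 4 gave 0.0349.

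**Figure D4:**
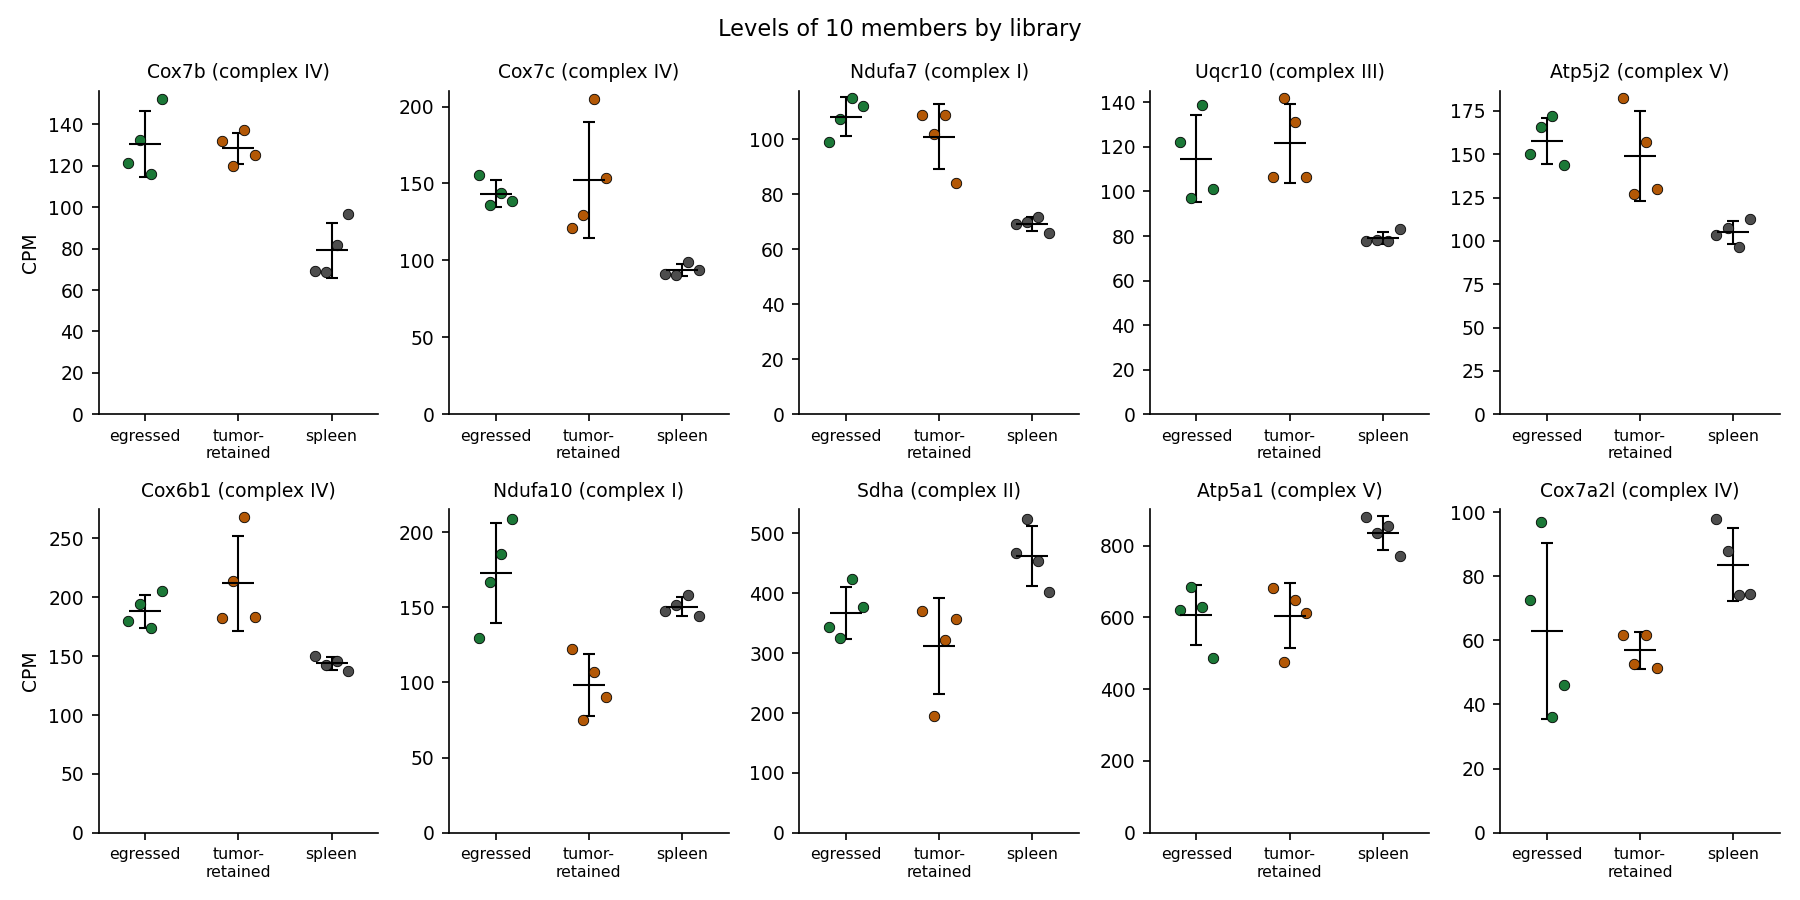
CPM of 10 members (vertical axes, from 0) in egressed, tumor-retained and spleen libraries, with group means and SD (n = 4). Cox7b, Cox7c, Ndufa7, Uqcr10, Atp5j2 and Cox6b1 have all egressed and all tumor-retained libraries above the spleen libraries, Atp5a1 has all of both below, and Ndufa10, Sdha and Cox7a2l have all tumor-retained libraries below the spleen libraries.

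Within complex I no member passed the test in any comparison. Ndufa7 had 98.9, 107, 115 and 112 CPM in egressed libraries, 109, 102, 109 and 84.0 CPM in tumor-retained libraries and 69.0, 69.9, 71.5 and 65.7 CPM in spleen libraries. Neither egressed nor tumor-retained libraries overlapped the spleen libraries, and the adjusted p was 0.0855 for tumor-retained against spleen, with a log2 fold change of 0.55 ± 0.15. Ndufa3, an accessory subunit in the membrane arm, averaged 129 ± 8.21 CPM in egressed, 116 ± 22.2 CPM in tumor-retained and 89.1 ± 7.60 CPM in spleen cells (SD, n = 4 each), with log2 fold changes against spleen of 0.54 ± 0.17 (adjusted p = 0.26) and 0.38 ± 0.17 (adjusted p = 0.275). Of the core subunits, which hold the cofactors, Ndufs1, the largest, ran from 66.5 to 199.5 CPM in egressed and from 66.1 to 256 CPM in tumor-retained libraries, on both sides of the 113 to 125 CPM of spleen libraries.

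All 4 genes of complex II had lower means in egressed than in spleen cells, and none passed the test. Their transcripts run from 1142 to 3171 bases, and the part of length was not tested. Sdha had 343, 325, 424 and 376 CPM in egressed libraries, 371, 196, 322 and 357 CPM in tumor-retained libraries and 468, 524, 455 and 402 CPM in spleen libraries. The tumor-retained libraries were all below the spleen libraries (log2 fold change -0.57 ± 0.19, adjusted p = 0.137), and egressed library 3 was above spleen library 4 (egressed against spleen, -0.33 ± 0.19, adjusted p = 0.792). Sdhb, the iron-sulfur subunit, had 153, 159, 162 and 101 CPM in egressed, 101, 107, 230.4 and 169 CPM in tumor-retained and 179.6, 186, 174 and 165 CPM in spleen libraries. Here the egressed libraries lay below the spleen libraries and the tumor-retained libraries lay on both sides of them. The membrane anchors were Sdhc, with means of 51.2 ± 10.9 CPM in egressed, 51.9 ± 14.8 CPM in tumor-retained and 63.9 ± 6.79 CPM in spleen cells, and Sdhd, with 106 ± 41.8 CPM, 122 ± 14.2 CPM and 111 ± 2.23 CPM in the same order (SD, n = 4 each), both overlapping between groups.

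In complex III the direction against spleen differed between subunits, and so did transcript length. The small subunits Uqcrq, Uqcr10 and Uqcrb, with transcripts of 405, 434 and 535 bases, had higher means outside the spleen. Transcripts of Uqcrfs1 and Uqcrc1, described below, have 1363 and 1653 bases, and the part of length was not tested. Uqcrq had 94.9, 131, 126 and 123 CPM in egressed libraries, 150.3, 125, 221 and 105 CPM in tumor-retained libraries and 81.2, 81.9, 91.5 and 81.9 CPM in spleen libraries. Uqcr10 had 122, 97.2, 139 and 101 CPM in egressed libraries, 107, 142, 131 and 107 CPM in tumor-retained libraries and 77.7, 78.3, 77.6 and 83.3 CPM in spleen libraries. For both, every egressed and tumor-retained library was above the spleen libraries, and tumor-retained against spleen gave log2 fold changes of 0.83 ± 0.22 for Uqcrq (adjusted p = 0.0744) and 0.62 ± 0.17 for Uqcr10 (adjusted p = 0.086). The core protein Uqcrc1 had its highest mean in the spleen, with 301 ± 38.5 CPM in egressed, 295 ± 26.6 CPM in tumor-retained and 351 ± 32.1 CPM in spleen cells (SD, n = 4 each). Its log2 fold change of tumor-retained against spleen was -0.25 ± 0.13 (adjusted p = 0.397). Uqcrfs1, which carries the Rieske iron-sulfur centre, averaged 100.2 ± 7.84 CPM in egressed, 87.1 ± 12.8 CPM in tumor-retained and 100.4 ± 14.9 CPM in spleen cells.

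Complex IV held the members with the smallest p for tumor-retained against spleen cells. Cox7c, a small membrane subunit, had 155, 136, 144 and 138 CPM in egressed libraries, 121, 129.5, 205 and 154 CPM in tumor-retained libraries and 91.4, 90.7, 98.9 and 94.0 CPM in spleen libraries. Cox6b1, which faces the intermembrane space and joins the monomers of the enzyme, had 179.7, 194, 174 and 205 CPM in egressed libraries, 182, 213, 268 and 183 CPM in tumor-retained libraries and 150.1, 142, 146 and 137 CPM in spleen libraries. Both lay above the spleen in all egressed and tumor-retained libraries, with log2 fold changes of tumor-retained against spleen of 0.70 ± 0.17 for Cox7c (adjusted p = 0.0586) and 0.56 ± 0.15 for Cox6b1 (adjusted p = 0.0744). Cox7a2 had 123, 151, 91.6 and 86.0 CPM in egressed libraries, 168, 74.7, 173 and 145 CPM in tumor-retained libraries and 82.3, 70.0, 75.5 and 84.4 CPM in spleen libraries, and tumor-retained library 2 lay within the spleen range (log2 fold change 0.84 ± 0.27, adjusted p = 0.125). Cox4i1, the largest nuclear subunit, averaged 195 ± 41.6 CPM in egressed, 209 ± 63.5 CPM in tumor-retained and 179 ± 21.5 CPM in spleen cells and overlapped between all groups. Cox7a2l, the supercomplex factor, had 72.6, 96.7, 36.0 and 45.9 CPM in egressed, 61.7, 52.6, 61.7 and 51.4 CPM in tumor-retained and 97.8, 87.9, 74.3 and 74.4 CPM in spleen libraries. Its tumor-retained libraries lay below all spleen libraries (log2 fold change -0.56 ± 0.29, adjusted p = 0.39), while egressed library 2 lay inside the spleen range and the other egressed libraries below it.

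In complex V the alpha and beta subunits of the catalytic head had their highest means in the spleen, and several small subunits had their lowest there. Atp5a1, the alpha subunit, had 621, 685, 630.3 and 488 CPM in egressed libraries, 683, 477, 647 and 611 CPM in tumor-retained libraries and 879, 834, 856 and 771 CPM in spleen libraries. Every egressed and tumor-retained library lay below the spleen libraries, with log2 fold changes of -0.46 ± 0.14 (adjusted p = 0.233) and -0.47 ± 0.14 (adjusted p = 0.107). Atp5b averaged 1096 ± 59.4 CPM in egressed, 1057 ± 184 CPM in tumor-retained and 1238 ± 27.1 CPM in spleen cells (SD, n = 4 each), and its egressed libraries also lay below all spleen libraries. Against this, Atp5j2 had 149.9, 166, 172 and 144 CPM in egressed libraries, 182, 127, 157 and 129.8 CPM in tumor-retained libraries and 103, 107, 96.3 and 112 CPM in spleen libraries, and both groups lay above the spleen libraries (egressed against spleen, 0.59 ± 0.15, adjusted p = 0.16, and tumor-retained against spleen, 0.51 ± 0.15, adjusted p = 0.115). Atp5k, subunit e, averaged 62.7 ± 7.19 CPM in egressed, 55.9 ± 12.6 CPM in tumor-retained and 37.2 ± 4.71 CPM in spleen cells, and Atp5l, subunit g, 41.0 ± 2.62 CPM, 39.1 ± 5.91 CPM and 24.7 ± 3.45 CPM in the same order (SD, n = 4 each). Near-identical copies of Atp5l elsewhere in the genome held reads equal to 14.5% of its own, so its level is uncertain. Atp5a1 shares 129 exon bases with Haus1 on the opposite strand, which reads without strand cannot tell apart. The difference of direction within the complex was not tested.

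Tissue forms of complex IV subunits had few reads. The broadly expressed forms Cox4i1, Cox6a1, Cox6b1, Cox7a2, Cox7b and Cox8a held nearly all counts of their pair or family in every group, with the lowest mean share, 99.0%, for Cox7a2 in egressed cells. Of the forms known from heart, lung, testis and other tissues, Cox4i2 had at most 45 counts in a library, Cox6a2 at most 123, Cox6b2 at most 53, Cox7a1 at most 59, Cox7b2 at most 33, Cox8c at most 44 and Cox8b at most 2. Cox6a2, the heart form of subunit 6a, had 0 counts in all egressed libraries, 123, 0, 63 and 16 in tumor-retained libraries and 15, 26, 4 and 11 in spleen libraries, where tumor-retained library 2 is also at 0. Ndufa4l2, which replaces Ndufa4 under low oxygen in other cells, had 0 counts in every egressed and tumor-retained library and at most 1 in spleen libraries. For subunit c, 3 genes make the same mature protein. In egressed cells their shares were 36.1 ± 3.29% for Atp5g1, 12.8 ± 3.26% for Atp5g2 and 51.1 ± 0.698% for Atp5g3. In the same order of genes they were 27.2 ± 4.27%, 12.5 ± 0.983% and 60.3 ± 3.91% in tumor-retained cells and 33.8 ± 1.98%, 13.1 ± 2.09% and 53.1 ± 2.36% in spleen cells (SD, n = 4 each). The share of Atp5g1 was lowest on average in tumor-retained cells. These shares are of counts not divided by length.

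The mitochondrially encoded subunits of the same complexes showed no call in any comparison. Of 12 tested, 11 had negative log2 fold changes in egressed against spleen cells (median -0.29), 10 in tumor-retained against spleen cells (median -0.25) and 7 in egressed against tumor-retained cells (median -0.16). Their sum ran from 2278 to 2848 CPM in egressed, 1443.5 to 4325 CPM in tumor-retained and 2664 to 4636 CPM in spleen libraries. mt-Co1, the catalytic subunit of complex IV, averaged 644 ± 99.4 CPM in egressed, 761 ± 311 CPM in tumor-retained and 1234 ± 409 CPM in spleen cells (SD, n = 4 each), with log2 fold changes against spleen of -0.94 ± 0.30 (adjusted p = 0.272) and -0.70 ± 0.30 (adjusted p = 0.245). Among subunits outside the symbol rule, chosen after their values were seen, 2010107E04Rik, a small subunit of the ATP synthase, averaged 78.1 ± 5.70 CPM in egressed, 75.8 ± 8.81 CPM in tumor-retained and 42.4 ± 2.42 CPM in spleen cells. It rose in tumor-retained against spleen cells (0.84 ± 0.18, adjusted p = 0.0314). Cyc1, cytochrome c1 of complex III, averaged 183 ± 43.6 CPM in egressed, 183 ± 48.6 CPM in tumor-retained and 192 ± 16.2 CPM in spleen cells. Atpif1, the inhibitor of the ATP synthase, had 13.3, 11.6, 14.9 and 16.8 CPM in egressed, 6.42, 14.3, 52.5 and 16.2 CPM in tumor-retained and 10.5, 8.34, 7.21 and 7.79 CPM in spleen libraries. The egressed libraries all lay above the spleen libraries and tumor-retained library 1 lay below all of them.

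In the wider pathway, 0 to 3 genes of each list around the complexes were called in tumor-retained against spleen cells, where 2.41% of all genes were, a share that a single call exceeds in lists of this size. Among 11 other chain components and carriers, Slc25a3, the phosphate carrier that supplies the ATP synthase, had 437, 398, 331 and 325 CPM in egressed, 573, 607, 475 and 721 CPM in tumor-retained and 310.4, 330.4, 337 and 322 CPM in spleen libraries. It rose in tumor-retained against spleen cells (0.87 ± 0.15, adjusted p = 0.0073) and missed the threshold in egressed against tumor-retained cells (-0.67, adjusted p = 0.0516). Of 32 assembly factors of complexes II to V, Coa5, needed for complex IV, fell in tumor-retained against spleen cells (58.8 ± 15.6 against 114 ± 18.1 CPM, log2 fold change -0.96 ± 0.23, adjusted p = 0.048), and no other was called. None of 14 complex I assembly factors and none of 30 mitochondrial ribosomal proteins was called in any comparison. Of 19 citrate cycle genes, Pdk1, which switches pyruvate dehydrogenase off, fell in tumor-retained against spleen cells (126 ± 36.5 against 306 ± 22 CPM, log2 fold change -1.27 ± 0.24, adjusted p = 0.013). Of 14 regulators of mitochondrial genes, Pprc1, a coactivator related to PGC-1alpha, fell in the same comparison (42.5 ± 25.1 against 179 ± 17.9 CPM, log2 fold change -2.08 ± 0.43, adjusted p = 0.0265). Of 10 genes linked to mitochondria in hypoxia, 3 were called for tumor-retained against spleen cells, of which Pdk1 is also in the citrate cycle list. The hypoxia factor Hif1a had 129, 115, 39.6 and 133 CPM in egressed, 333, 507, 415 and 651 CPM in tumor-retained and 154, 126, 122 and 118 CPM in spleen libraries. It was the 1 gene of these lists called lower in egressed than in tumor-retained cells (-2.19 ± 0.34, adjusted p = 0.0104, against 1.10% of all genes called) and was higher in tumor-retained than in spleen cells (1.87 ± 0.33, adjusted p = 0.0101). Bnip3, a mitophagy receptor, rose in tumor-retained against spleen cells (3.82 ± 0.75, adjusted p = 0.0184). Its highest levels, 55.3 and 87.0 CPM, were in tumor-retained libraries 3 and 4, which also hold most macrophage and stromal transcripts, and the part of these was not tested. No gene of these lists was called in egressed against spleen cells, where 0.368% of all genes were.

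Members' fold changes against spleen went with the length of their transcripts. Over the 77 members of at least 10 CPM, Spearman's rho between length and log2 fold change was -0.416 for egressed against spleen, -0.493 for tumor-retained against spleen and 0.0739 for egressed against tumor-retained cells. This is a description across genes, which share libraries and are not independent. Members under 600 bases (23 genes) had a median log2 fold change of 0.34 in egressed against spleen cells, those of 600 to under 1000 bases (24 genes) 0.17, and those of 1000 bases or more (30 genes) 0.06. For tumor-retained against spleen cells the medians were 0.38, 0.23 and 0.00 in the same order. Other coding genes of at least 10 CPM showed the same order, with 0.41 (91 genes), 0.25 (408 genes) and -0.19 (8191 genes) for egressed against spleen cells. For tumor-retained against spleen cells theirs were 0.19, 0.15 and -0.13, and rho over all 8690 was -0.367 and -0.191 in the 2 comparisons. In egressed against spleen cells, members under 1000 bases thus had lower medians than other genes of their class, and longer members a higher one. In tumor-retained against spleen cells the members' median was the higher in each class. The members are short, with a median transcript of 745 bases against 2394.5 for all coding genes, and 47 of 77 members are under 1000 bases. The part of length in the members' values was not tested.

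**Figure D5:**
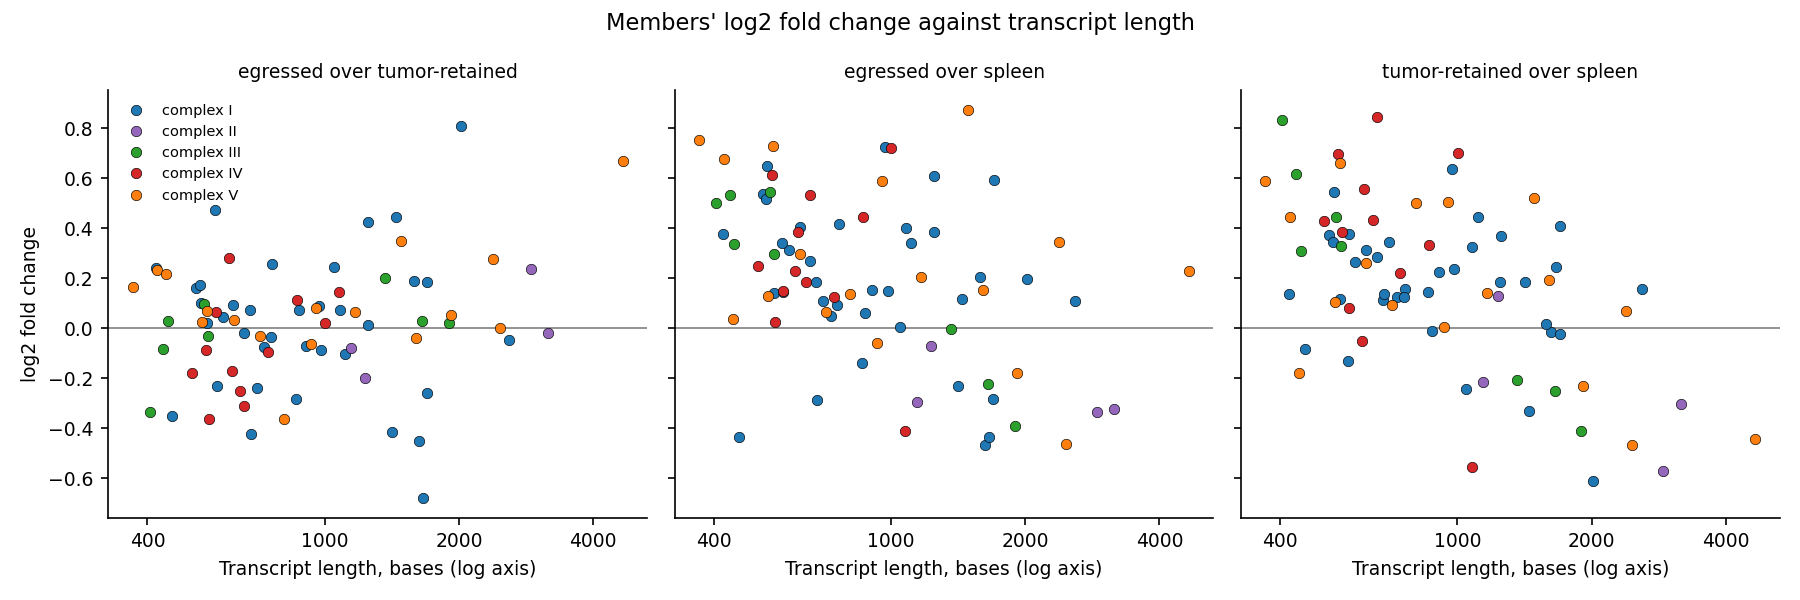
log2 fold change of the 77 members of at least 10 CPM against transcript length in bases (log axis), colored by complex, for egressed against tumor-retained, egressed against spleen and tumor-retained against spleen cells. Short members lie higher in both comparisons with spleen (rho -0.416 and -0.493) and not in the first (rho 0.0739).

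Between libraries of a group the members varied less than the whole set of genes above the same floor of 10 CPM, which was not matched to them in level. The median coefficient of variation of the 77 members was 18.5% in egressed, 24.8% in tumor-retained and 7.94% in spleen cells, beside 35.5%, 38.0% and 12.4% for the 9054 genes of at least 10 CPM. The most variable member was Atp5s in egressed cells (53.3%), Ndufs1 in tumor-retained cells (62.8%) and Ndufb2 in spleen cells (32.9%). The sums of complex I spread in the same way: tumor-retained libraries 1 and 3 had the highest sum of complex I and tumor-retained library 2 the lowest of all 12.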

How the data were processed

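RNA was sequenced from 12 libraries of sorted CD8+ T cells, 4 per group, made with the SMART-Seq v4 kit, which adds no molecular identifiers, per the labels' protocols. The floor of 3 counts therefore covers counting error only, while standard errors and intervals of fold changes come from the fit and cover the spread between libraries. STAR 2.7.3a, Bowtie2 2.5.1, Cufflinks 2.2.1, cutadapt 2.5 and mm10 are named in the submitters' processing notes. For the roles of these tools, the annotation and the use of strand, no source used here gives a statement. The authors deposited raw counts per gene symbol, with no normalization, and, per the file headers and values, log2 values that equal log2(count / size factor + 1) (largest difference 5.1e-09), which were checked and not tested.

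Counts were filtered (filterByExpr), scaled (TMM) and fitted with edgeR 4.0.16 in R 4.3.3 as 1 quasi-likelihood model of 3 groups (21457 genes, 9 residual degrees of freedom). Contrasts were adjusted by Benjamini-Hochberg over all genes at 0.05. CPM use TMM library sizes. P-values measure the spread between libraries labelled as replicate mice. Members and lists were chosen with earlier results of these data known, so no list or score was tested. Members named are those called, the 2 with the smallest p per complex and comparison, the extremes of level per length, the Sdh genes and subunits with paralogs. Others are listed where their groups do not overlap, and Ndufs1, Uqcrc1, Atp5k and Atp5l were chosen after their values were seen. Positions and lengths are from GENCODE M21 (46957 symbols matched, all 85 members). Copies were sought with blastn 2.17.0. Same-numbered libraries were not paired, as the labels do not say that they share a mouse. The column headers use the same library numbers in each group, which may or may not mark shared mice. Correlations of deviations between same-numbered libraries were -0.123 to 0.114, which cannot show whether mice were shared. 27 symbols turned into dates by a spreadsheet were kept and not named. Alternatives used DESeq2 1.42.0, limma-voom (limma 3.58.1), other scalings and filters, a replicate block and left-out libraries. Values of 1 member are not reported here, though it is part of the counts and medians. The scripts were tested on simulated data.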

Additional observations from a re-analysis of the deposited data

Results flagged for a closer look

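Among 135 groups of 4 values, 7 held a library far from the other 3. Chance gives about 1 in 20 groups, which is about as many. The number given for each is the gap to the nearest library as a share of the range of the group. Sdhb was low in egressed library 4 (101 CPM, against 153 to 162 CPM in the others, gap 0.859), and so was the sum of complex V in that library (3464 CPM, against 3846 to 3904 CPM, gap 0.867). Complex III summed highest in tumor-retained library 3 (1232 CPM, against 899.9 to 956 CPM, gap 0.83), which also had the most stromal transcripts, and Atp5l was highest there too (47.9 CPM, against 35.3 to 36.9 CPM, gap 0.871). Among spleen libraries, library 4 was high for Atp5l (29.9 CPM, against 22.6 to 23.4 CPM, gap 0.891) and Uqcr10 (83.3 CPM, against 77.6 to 78.3 CPM, gap 0.887), and library 3 for Uqcrq (91.5 CPM, against 81.2 to 81.9 CPM, gap 0.924). These spleen values stayed below all egressed and tumor-retained libraries of the same genes.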

How the results depend on the processing

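For tumor-retained against spleen cells, where 1 member was called, 7 were called with the size factors of DESeq2 in edgeR (2.33% of all genes), 2 with library size only (2.28%), 0 without a filter (0.849%), 6 with at least 1 CPM in at least 4 libraries (3.39%), 16 by DESeq2 (8.36%), 2 by limma-voom (Cox7b higher, Atp5a1 lower, 5.58%) and 5 with the 2 groups alone (6.73%). With a replicate block 0 were called in each comparison, and in 5 of 24 searches for a library's best match in another group the number was its own. Alternatives chosen after seeing the data gave 0 without tumor-retained libraries 3 and 4 (1.90%), 6 without egressed libraries 3 and 4 and tumor-retained library 1, which had fewest genes (8.85%), and 9 with only genes of at least 10 CPM (8.59%). Leaving out 1 library gave 0 to 2 calls, 2 without tumor-retained 1 (Cox6b1, Cox7c), 1 without tumor-retained 2 (Cox7a2), 1 without egressed 4 (Cox7b) and 0 without each of the others. For Cox7b the adjusted p was 0.145 without a filter, 0.105 with the block and 0.0187 with the size factors of DESeq2. For egressed against spleen cells, where 0 were called, the counts were 1 with the size factors of DESeq2 (0.419% of all genes), 13 by DESeq2 (2.40%), 3 with the 2 groups alone (1.18%), 4 with genes of at least 10 CPM (1.61%) and 0 to 0 with 1 library left out. For egressed against tumor-retained cells they were 1 with library size only (1.21%), 3 by DESeq2 (9.03%), 1 with genes of at least 10 CPM (5.09%) and 0 to 0 with 1 library left out. Members' median log2 fold change for egressed against spleen moved to 0.36 with either use of DESeq2's size factors, 0.33 with library size only and 0.37 with genes of at least 10 CPM, and ran from 0.15 to 0.27 with 1 library left out. For egressed against tumor-retained it moved to 0.13 with library size only and 0.10 without tumor-retained libraries 3 and 4 (-0.045 without tumor-retained 2 to 0.10 with 1 left out), and for tumor-retained against spleen it ran from 0.07 (without tumor-retained 3) to 0.31 with 1 left out. For egressed against tumor-retained the median of all genes moved too, to 0.09 with library size only and 0.22 without tumor-retained libraries 3 and 4. The members' distance from it was 0.04 and -0.12 in the same order, and -0.21 without tumor-retained 2. DESeq2's size factors moved the median of all genes from -0.13 to 0.03 for egressed and from -0.15 to 0.03 for tumor-retained against spleen, and the members' distance from it was 0.33 and 0.32. Over all settings and omissions that distance ran from 0.21 to 1.01 for egressed against spleen and from 0.29 to 0.95 for tumor-retained against spleen, where it was 0.53 without tumor-retained libraries 3 and 4, 0.67 with the replicate block, 0.68 without tumor-retained library 2, 0.81 without a filter and 0.95 with limma-voom. The cause of these moves was not tested. The 39 results for single members at p under 0.05 before adjustment (edgeR) kept their direction in 417 values under other settings. They also kept it in 468 values with 1 library left out. They were picked by that p from the same libraries, so a reversal was unlikely from the start and other members were not followed. Depth limits the alternative subunits, which had few reads.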
